A study of Mus musculus with 6 samples.

Results

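Alveolar type 2 (AT2) cells of the postnatal mouse lung were taken from 4 single-cell libraries by their transcripts. Members were selected on their own UMI values: a barcode counted as an AT2 cell when at least 3 of the 6 genes Slc34a2, Etv5, Napsa, Hc, Cxcl15 and Sftpb each had 2 or more unique molecular identifiers (UMIs, 1 per captured transcript) and when the genes of other lung cells (Pecam1, Cldn5, Col1a2, Ptprc, Rtkn2, Scgb3a2 and Foxj1) together had no more than 1 UMI. Barcodes also needed at least 1500 UMIs in the Bdnf libraries or 700 in the Hgf libraries, and a mitochondrial share of at most 25%. The rule kept 18002 of 70427 lung barcodes that passed the UMI and mitochondrial limits (78320 with the cortex libraries). It kept 4589 AT2 cells in the Bdnf control library, 4780 in the Bdnf iPCKO library, 5042 in the Hgf control library and 3591 in the Hgf iPCKO library. No barcode of either cortex library met it.

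The study removed a growth factor gene from pericytes, the mural cells that wrap capillaries, and asked what the growth factor does for the lung. Controls were Bdnf lox/lox or Hgf lox/lox mice, and the mutants, called iPCKO, carried the same floxed alleles with Pdgfrb(BAC)-CreERT2, a tamoxifen-inducible Cre that follows the Pdgfrb gene of pericytes and other mural cells. The labels of controls and mutants name the same treatment, 50 µg tamoxifen on postnatal days (P) 1 to 3, and lungs were taken at P21. CD45+ leukocytes and erythrocytes were depleted before capture, so the shares below are shares of the cells that were left. Each library pooled 2 mice, and each genotype had 1 library. The groups therefore have no replicates, no test of a genotype was possible, and genotype and library cannot be told apart. Intervals are exact 95% intervals (Poisson for counts, conditional binomial for ratios, Clopper-Pearson for shares), and they cover counting error only. The remaining libraries came from P12 cortex of Nodal lox/lox and Nodal iPCKO mice.

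AT2 cells are the cuboidal cells of the alveolus. They make and recycle surfactant, the mixture of phospholipids and surfactant proteins that keeps air spaces open, and store it in lamellar bodies. They also secrete lysozyme, complement and chemokines, carry MHC class II molecules, which present peptides to T cells, and are the progenitors of the flat alveolar type 1 (AT1) cells. AT2 cells carry Met, the receptor for hepatocyte growth factor, whereas Ntrk2, the receptor for brain-derived neurotrophic factor, is mainly a gene of other lung cells.

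Of the gene lists described below, other cells' markers aside, MHC class II genes had the lowest and genes of the circadian clock the highest median ratio of Hgf iPCKO to Hgf control AT2 cells. The promoters that follow (250 bases upstream of the transcription start, RefSeq, GRCm38.p6, written 5′ to 3′ on the strand of the gene) show a known element of each group, with its letters in capitals. The H2-Aa (chr17:34287824-34288073, minus strand) and H2-Eb1 (chr17:34305617-34305866, plus strand) promoters hold a Y box (CTGATTGG), 51 and 62 bases before the start.
H2-Aa: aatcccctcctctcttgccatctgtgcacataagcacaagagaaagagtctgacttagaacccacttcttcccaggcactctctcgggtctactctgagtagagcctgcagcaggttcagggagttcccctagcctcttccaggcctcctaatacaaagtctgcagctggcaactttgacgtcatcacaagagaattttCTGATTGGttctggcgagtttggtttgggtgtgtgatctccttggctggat
H2-Eb1: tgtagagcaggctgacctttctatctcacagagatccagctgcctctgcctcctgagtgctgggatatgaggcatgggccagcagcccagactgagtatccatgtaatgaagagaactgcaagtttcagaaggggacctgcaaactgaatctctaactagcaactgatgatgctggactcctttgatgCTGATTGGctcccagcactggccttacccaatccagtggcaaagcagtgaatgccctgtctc
The Ciart promoter (chr3:95882229-95882478, minus strand) holds 3 E boxes (CACGTG), the sequence read by CLOCK and BMAL1, at 116, 58 and 44 bases before the start. The Per3 promoter (chr4:151044666-151044915, minus strand) holds 2 D boxes (TTATGTAA), the sequence read by DBP, TEF and HLF, at 205 and 158 bases.
Ciart: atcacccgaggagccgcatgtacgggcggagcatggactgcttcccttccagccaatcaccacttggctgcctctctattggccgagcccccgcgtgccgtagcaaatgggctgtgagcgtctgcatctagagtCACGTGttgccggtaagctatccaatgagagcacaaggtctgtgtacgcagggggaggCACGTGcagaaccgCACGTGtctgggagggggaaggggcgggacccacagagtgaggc
Per3: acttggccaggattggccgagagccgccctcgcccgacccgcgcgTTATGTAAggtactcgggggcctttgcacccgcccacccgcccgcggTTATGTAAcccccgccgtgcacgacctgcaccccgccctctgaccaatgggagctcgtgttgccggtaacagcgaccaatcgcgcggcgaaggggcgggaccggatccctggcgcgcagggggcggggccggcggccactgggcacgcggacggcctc
Both strands were searched. Of 7 MHC class II genes, 4 had a promoter in the table and 2 of these held the Y box, which stood in 3.83% of all 32851 promoters. Of 16 clock genes, 14 had a promoter in the table. The E box stood in 5 of them and in 6.02% of all promoters, and the D box stood in 1 of them and in 0.819% of all. A match describes the letters of this window and shows no binding.

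AT2 cells had a median of 8288 UMIs in the Bdnf control library, 5735.5 in Bdnf iPCKO, 4701.5 in Hgf control and 3571 in Hgf iPCKO, and medians of 2892, 2261.5, 1960 and 1630 genes. Their median mitochondrial share lay between 12% and 15.3%, above the 6.95% to 8.04% of the other barcodes. Any 2 libraries shared 13 to 32 AT2 barcodes, at most 0.669% of a library's AT2 cells. Scrublet called 0.305% to 2.15% of the AT2 cells doublets. Outside the AT2 cells, Hgf (the targeted gene of one pair) stood at 14.6 CPM, UMIs per 1000000 UMIs of those barcodes, in the Hgf control and 3.46 in the Hgf iPCKO library, and Bdnf (the target of the other) at 41.5 in the Bdnf control and 33.9 in the Bdnf iPCKO library. The gene that was not targeted was also lower in each mutant. Bdnf stood at 45.5 CPM in Hgf control and 30.4 in Hgf iPCKO, and Hgf at 10.3 in Bdnf control and 6.12 in Bdnf iPCKO. In the few barcodes with pericyte markers (66 to 148 per library), Hgf stood at 136 CPM (19 UMIs, interval 81.6 to 212) in the Hgf control and 27.0 CPM (7 UMIs, 10.8 to 55.6) in the Hgf iPCKO library. Bdnf stood there at 23.2 CPM (11 UMIs, 11.6 to 41.6) in the Bdnf control and 13.9 CPM (5 UMIs, 4.51 to 32.4) in the Bdnf iPCKO library. There too the untargeted gene was lower in each mutant. Bdnf stood at 49.9 CPM (7 UMIs) in Hgf control and 15.4 (4 UMIs) in Hgf iPCKO. Hgf stood at 101 CPM (48 UMIs) in Bdnf control and 69.4 (25 UMIs) in Bdnf iPCKO. Pdgfrb, a marker of that gate, stood in the same barcodes at 498 CPM in Bdnf control and 1908 in Bdnf iPCKO. It stood at 1377 CPM in Hgf control and 4193 in Hgf iPCKO. Over all barcodes outside the AT2 cells, Pdgfrb stood at 17.7 CPM in Bdnf control and 47.4 in Bdnf iPCKO. There it stood at 21.2 CPM in Hgf control and 84.6 in Hgf iPCKO. Only the mutants carried the Pdgfrb(BAC)-CreERT2 transgene, and its part in the Pdgfrb values was not tested. Whether the gate picked like cells in controls and mutants was not tested. The deleted exons are not named in the sources used here, so reads from the 3′ end may lie outside them.

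Genes that the rule did not use placed these barcodes with AT2 cells. Values for 4 libraries are given from here on in the order Bdnf control, Bdnf iPCKO, Hgf control, Hgf iPCKO, in CPM over the summed UMIs of the AT2 cells. Sftpc, the surfactant protein particular to AT2 cells, stood at 65840, 70638, 65683 and 54469 CPM. Lamp3, a lamellar body membrane protein, stood at 2650, 2266, 3350 and 1500 CPM. The 6 genes of the rule are given only as a description. Slc34a2, the phosphate carrier of AT2 cells, stood at 7135, 6892, 6179 and 6897 CPM, Napsa, a surfactant protein protease, at 1081, 1079, 1284 and 1134, and Sftpb at 7024, 6441, 8802 and 7579. Etv5, an ETS transcription factor that maintains AT2 identity, stood at 527, 475, 1108 and 846 CPM. All 6 markers were present in 3704, 2960, 3977 and 1244 cells.

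Few cells sat at the edge of the marker limit. Exactly 3 markers were found in 21, 35, 40 and 169 members, whose Sftpc level was 20981, 56872, 43083 and 43786 CPM. Exactly 2 markers, just outside, were found in 10, 28, 18 and 32 barcodes, with Sftpc at 778, 2940, 17587 and 16611 CPM. The limit on other cells' genes removed more. Barcodes with the markers and more than 1 but at most 2 UMIs of those genes numbered 603, 804, 265 and 194. Their Sftpc level was 62232, 66506, 60896 and 43948 CPM, below the 65840, 70638, 65683 and 54469 CPM of the members. Ager, an AT1 gene, stood there at 514, 443, 664 and 762 CPM. In members with all 6 markers it stood at 486, 382, 554 and 312 CPM.

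AT2 cells made up a smaller share of the mutant than of the control library in both pairs. They were 27.4% (95% interval 26.7 to 28.1) of Bdnf control and 20.1% (19.6 to 20.6) of Bdnf iPCKO barcodes. They were 35.8% (35.0 to 36.6) of Hgf control and 22.7% (22.1 to 23.4) of Hgf iPCKO barcodes. Before the limit on other cells' genes, barcodes with 3 or more AT2 markers were 45.3% and 41.7% in the Bdnf pair and 45.7% and 30.9% in the Hgf pair. That limit set aside 39.6%, 51.8%, 21.7% and 26.6% of the marked barcodes, so part of the gap in the Bdnf pair arose at that step. Scrublet called 25%, 41.8%, 14.4% and 23.4% of the barcodes set aside doublets.

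AT2 cells were set beside their neighbours gene by gene. Against the highest of the AT1, endothelial and fibroblast classes, each gated by a rule of the same form, 127 of 3629 genes were at least 4-fold higher in AT2 cells of every library and 53 at least 10-fold (lowest fold over the libraries). This comparison was chosen after the data were seen, because the other barcodes include many that hold AT2 transcripts. Club cells (179 to 358 per library) were not among the classes compared, so a gene shared with them can pass. Hc (complement C5) and Etv5 had lowest folds of 64.6 and 41.1, but both chose the AT2 cells and were limited in the other classes, so these folds were set by the rules. Of genes outside the rule, Gstp3, a glutathione transferase, was highest at 31.1, followed by Egfl6, a secreted matrix protein, at 28.7. Lyz1 (lysozyme) and Scd1 (stearoyl-CoA desaturase, which makes monounsaturated fatty acids) reached 28.0 and 23.0, and Elf5, an ETS factor of secretory epithelium, also 23.0. Sftpc stood 126-, 63.5-, 90.5- and 20.3-fold above the highest of those classes, lowest in Hgf iPCKO. The classes were not exclusive: 3, 5, 8 and 28 AT2 cells also met the rule of another class. Of the AT1 cells, 4, 5, 6 and 33 did so, and their part in these folds was not tested.

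AT2 cells varied among themselves in lysozyme genes and a desaturase. After each cell was thinned to 1500 UMIs (6, 2, 77 and 76 shallower cells left out), the Fano factor, the variance over the mean, had a median of 1.03 over 3253 genes. For Lyz1 it was 28.2, 25.3, 35.6 and 25. The median cell had no Lyz1 UMI in any library, while the cell at the 95th percentile had 30, 31, 33 and 16. A Lyz1 UMI was found in 28.1%, 31.7%, 24.7% and 17.1% of thinned AT2 cells, against 2.97%, 4.84%, 3% and 0.923% of thinned endothelial cells, which should lack the gene. Scd1 had a median of 5, 3, 17 and 6 UMIs per cell and a 95th percentile of 26, 19, 60 and 34. Lyz2, the other lysozyme gene, had medians of 33, 25, 50 and 21. Lyz1 and Lyz2 are near-identical copies, so the split of reads between them is uncertain. Scgb1a1, the secretory protein of club cells, had Fano factors of 15.2, 16.9, 29.7 and 41.7, but a UMI of it was found in 42.7%, 58.1%, 38.4% and 60.9% of thinned AT2 cells and in 44.2%, 66.9%, 44.0% and 69.1% of thinned endothelial cells, so its share is read as background. By contrast, the 4 surfactant protein genes together took a mean of 143, 147, 151 and 129 of 1500 UMIs, with a 5th to 95th percentile range of 106 to 182, 107 to 188, 114 to 188 and 86 to 168.

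**Figure D1:**
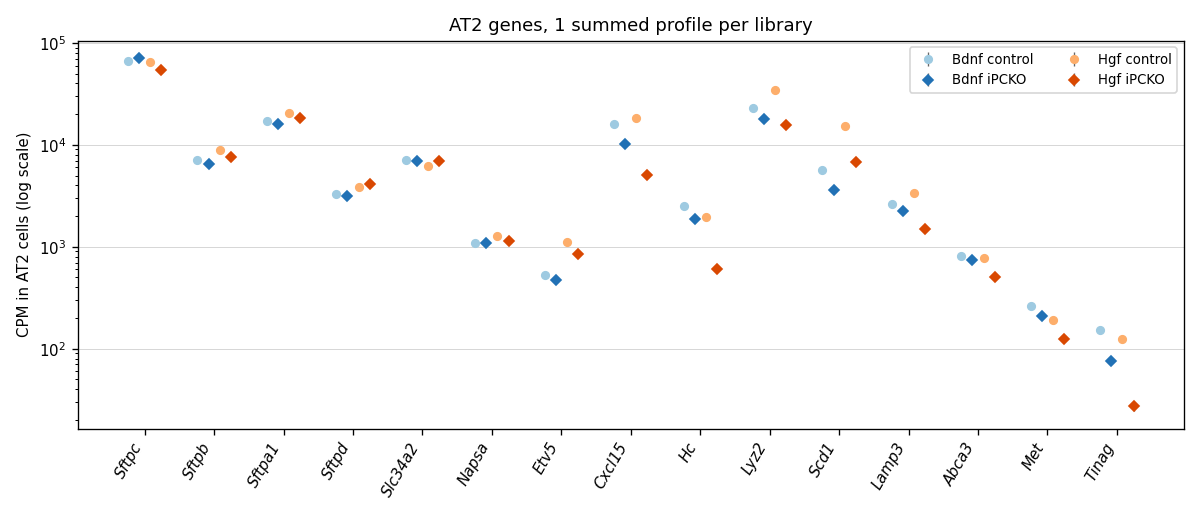
AT2 genes in CPM (log axis) in the AT2 cells of each of the 4 lung libraries, 1 point per library with its 95% interval (often smaller than the point), genes on the horizontal axis. Surfactant protein genes such as Sftpc (65840, 70638, 65683 and 54469 CPM) lie close together, while the Hgf iPCKO point lies below the other 3 for Cxcl15 (5102 CPM), Hc (609 CPM) and Tinag (27.3 CPM).

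In AT2 cells, 1154 of 11971 genes with at least 100 UMIs over the Hgf pair lay past 2-fold between Hgf iPCKO and Hgf control (9.64%), 466 higher (3.89%) and 688 lower (5.75%) in the mutant. In the Bdnf pair, 283 of 13637 genes lay past 2-fold (2.08%), 196 higher (1.44%) and 87 lower (0.638%). The median log2 ratio over all genes was -0.01 in both pairs. These shares are the background for the gene groups that follow, which were described by how many members lay past 2-fold in each direction and by their median log2 ratio of mutant to control. The groups share some genes, so their counts are not independent.

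Surfactant protein genes differed little. None of the 4 lay past 2-fold in either pair, and their median log2 ratio was -0.09 in the Bdnf pair and -0.19 in the Hgf pair. Sftpa1, a collectin that also binds microbes, stood at 17317, 16069, 20382 and 18256 CPM, and Sftpd, the other collectin, at 3311, 3154, 3882 and 4106. Lamellar body genes had 3 of 12 past 2-fold lower in Hgf iPCKO and none in Bdnf iPCKO, with medians of -0.15 and -0.22. Lamp3 was 2.23-fold lower in Hgf iPCKO (log2 ratio -1.16, interval -1.18 to -1.14). Abca3, the lipid pump of lamellar bodies, stood at 821, 741, 774 and 501 CPM, a log2 ratio of -0.63 in the Hgf pair that did not reach 2-fold.

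The medians of lipid synthesis genes lay below control in both mutants. Of 19 genes of fatty acid and phospholipid synthesis, 4 were past 2-fold lower in Hgf iPCKO (Scd1, Elovl1, Acoxl and Fads2) and none in Bdnf iPCKO, with medians of -0.46 and -0.27. Scd1 stood at 5722, 3602, 15467 and 6813 CPM, so the 2 controls differed from each other by more than either pair did. Elovl1, which lengthens very long fatty acids, stood at 274, 145, 511 and 149 CPM (log2 ratio -1.78 in the Hgf pair and -0.92 in the Bdnf pair). Among 17 cholesterol synthesis genes, Dhcr7, the last enzyme of the pathway, was past 2-fold lower in Hgf iPCKO (31.6 against 8.31 CPM). All 17 lay below 0 in the Bdnf pair, none past 2-fold (median -0.25), and the median was -0.38 in the Hgf pair.

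AT2 transcription factors differed little, and 1 lay past 2-fold in each pair. Nkx2-1, the master regulator of lung epithelium, stood at 255, 261, 271 and 301 CPM, and Cebpa, a factor of AT2 maturation, at 386, 378, 356 and 494. Rbpjl, a paralogue of the Notch effector Rbpj, stood at 188, 193, 255 and 104 CPM, and was 2.46-fold lower in Hgf iPCKO. Sox9, a factor of the embryonic lung tips, stood at 1.46, 6.06, 1.20 and 1.75 CPM and was past 2-fold higher in Bdnf iPCKO. Group medians were 0.03 for 16 genes in the Bdnf pair and -0.05 for 15 genes in the Hgf pair. Bcl11a, a zinc finger repressor, was among the AT2-enriched genes highest in Hgf iPCKO and stood at 219, 197, 383 and 1155 CPM (log2 ratio 1.59 in the Hgf pair). A Bcl11a UMI was found in 26.2%, 23.3%, 39.1% and 75.4% of thinned AT2 cells.

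More host defence genes lay past 2-fold lower than higher in Hgf iPCKO. Of 16, 5 were past 2-fold lower (Lyz1, Lyz2, Hc, Cxcl15 and Il33) and Cd14, a lipopolysaccharide co-receptor, was past 2-fold higher, with a median of -0.54. None was past 2-fold in Bdnf iPCKO (median -0.02). The log2 ratio of Lyz1 in the Hgf pair fell under 2-fold in 1 alternative setting, to -0.96. Cxcl15 (lungkine, a neutrophil chemokine, chr5:90942393-90950926, plus strand, GRCm39) stood at 15849, 10188, 18147 and 5102 CPM. It was 3.56-fold lower in Hgf iPCKO and 1.56-fold lower in Bdnf iPCKO, and the median thinned cell had 22, 14, 26 and 7 UMIs. Hc (chr2:34873343-34951453, minus strand) stood at 2502, 1858, 1943 and 609 CPM and was 3.19-fold lower in Hgf iPCKO. Both belong to the rule that chose the cells, and with both left out of it their log2 ratios in the Hgf pair were -1.82 for Cxcl15 and -1.67 for Hc. Il33, an alarmin cytokine, stood at 261, 379, 259 and 91.1 CPM, below control in Hgf iPCKO (log2 ratio -1.5) and above it in Bdnf iPCKO (0.54).

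All 7 MHC class II genes were past 2-fold lower in Hgf iPCKO AT2 cells. Their median log2 ratio was -2.45, and their summed level was 2523 CPM in Hgf control and 522 in Hgf iPCKO. Cd74, the invariant chain that escorts class II molecules, stood at 1559, 1057, 945 and 216 CPM. H2-Ab1, the beta chain (chr17:34476663-34488393, plus strand), stood at 533, 372, 541 and 97.8 CPM, and H2-Aa, the alpha chain (chr17:34493404-34506798, minus strand), at 731, 534, 707 and 148. Ciita, the transactivator that class II promoters need (chr16:10297923-10347694, plus strand), stood at 31, 22.1, 22.2 and 1.30 CPM. Its log2 ratio in the Hgf pair was -4.10 (interval -4.89 to -3.40), from 536 UMIs in Hgf control and 17 in Hgf iPCKO. H2-DMa, which loads peptides, had a log2 ratio of -2.85 (-3.28 to -2.46). In the Bdnf pair all 7 lay below 0 and none reached 2-fold (median -0.49, summed level 3264 and 2302 CPM).

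**Figure D2:**
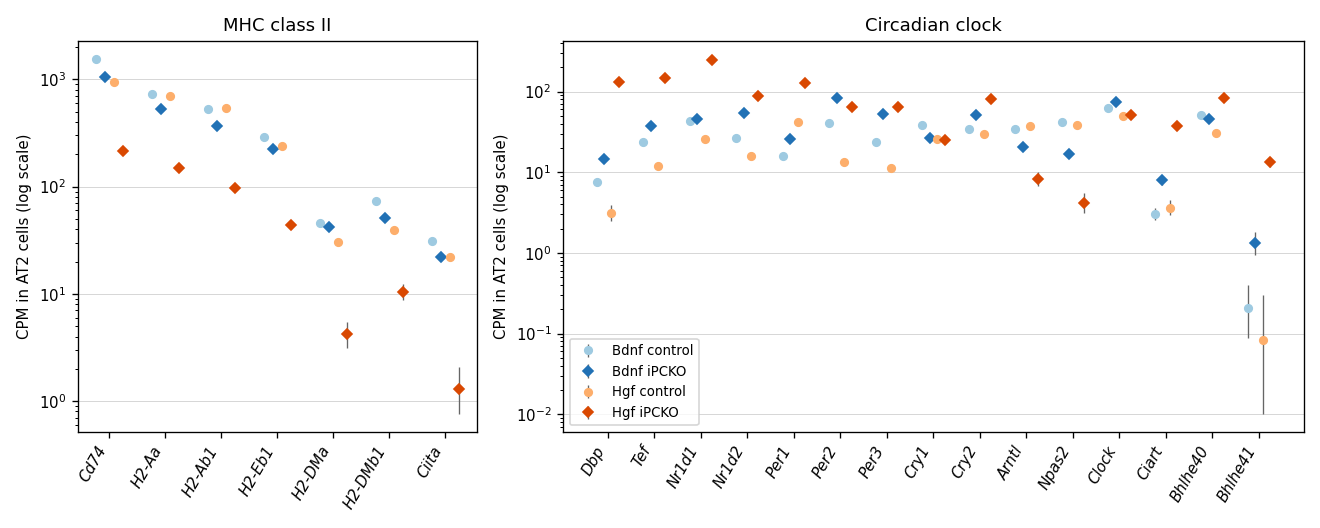
MHC class II genes and circadian clock genes in CPM (log axis) in the AT2 cells of the 4 lung libraries, 1 point per library with its 95% interval as a thin line. The Hgf iPCKO point is the lowest for every MHC class II gene (Ciita 1.30 CPM) and the highest for Dbp (131 CPM), and the lowest for Npas2 (4.18 CPM).

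The MHC class II difference ran through most cells. With every cell at 1500 UMIs, the 7 genes together had a mean of 4.99, 3.44, 3.84 and 0.783 UMIs per AT2 cell. At least 3 such UMIs were found in 77.7% (76.5 to 78.9), 57.0% (55.6 to 58.4), 61.9% (60.6 to 63.3) and 8.85% (7.93 to 9.84) of AT2 cells. The same share in endothelial cells, given for comparison, was 0.450%, 0.0249%, 1.5% and 0.118%. Endothelial cells, at this low level, also had lower values in Hgf iPCKO, with log2 ratios of -2.36 for H2-Ab1 (-2.63 to -2.11), -2.35 for H2-Aa and -1.39 for Cd74. In the Bdnf pair H2-Ab1 was at -0.85 in endothelial cells and at -0.52 in AT2 cells. How much of the endothelial value is free RNA from AT2 cells was not tested.

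**Figure D3:**
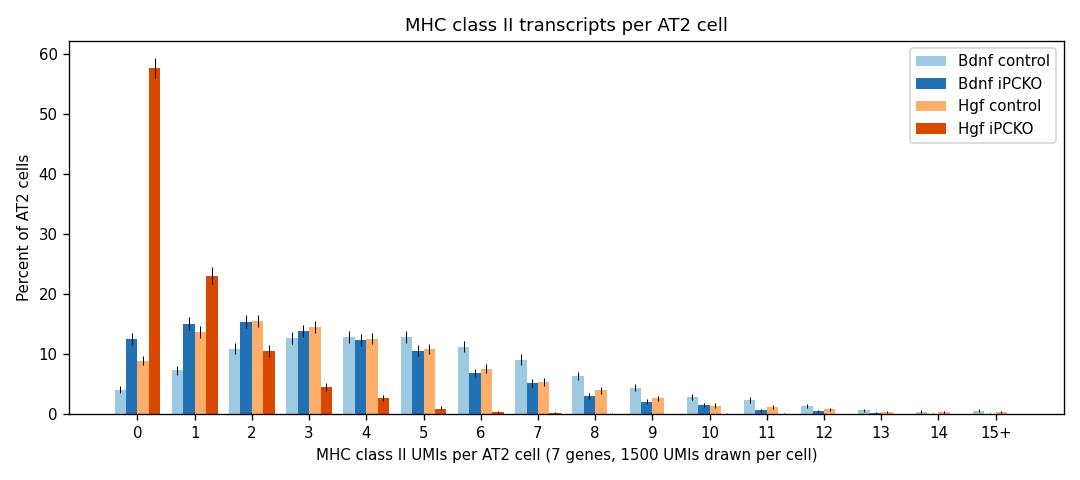
Percent of AT2 cells (vertical axis) by the number of MHC class II UMIs per cell after thinning to 1500 UMIs (horizontal axis), with a bar for each lung library and exact 95% intervals as thin lines. The Hgf iPCKO distribution sits at 0 to 2 UMIs (8.85% of cells at 3 or more), and the Hgf control distribution reaches further right (61.9%).

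MHC class I and interferon genes had medians nearer to 0. Of 8 MHC class I genes, Psmb9, an immunoproteasome subunit, was past 2-fold lower in Hgf iPCKO (5.08 against 1.37 CPM), and the median was -0.44 in each pair. Of 8 interferon-stimulated genes tested in the Hgf pair, 3 were past 2-fold lower, Oasl2 and Ifi27 among them, with a median of -0.90. None of 7 was past 2-fold in the Bdnf pair (median -0.35). Of 9 NF-kB and inflammation genes, none was past 2-fold in either pair, with a median of 0.26 in each.

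Clock genes had the highest median log2 ratio of the lists in Hgf iPCKO, other cells' markers aside. Of 15 genes tested, 11 were past 2-fold higher and 2 (Arntl and Npas2) lower, with a median log2 ratio of 2.27. Dbp, an output gene of the clock (chr7:45354512-45359627, plus strand), stood at 7.58, 14.5, 3.14 and 131 CPM (log2 ratio 5.38, interval 5.05 to 5.73). Nr1d1, a repressor of the Bmal1 gene, stood at 42.7, 45.2, 26.1 and 249 CPM, and Per3, a period protein, at 23.7, 52.0, 11.4 and 63.6. The opposite arm was lower. Arntl, the annotation's name for Bmal1, stood at 34.5, 20.6, 37.1 and 8.34 CPM, and Npas2, a partner of BMAL1 (chr1:39232705-39402323, plus strand), at 42.2, 17.0, 38.5 and 4.18. Clock itself stood at 61.9, 74.3, 49.8 and 51 CPM. Bhlhe41, another repressor, had 2 UMIs in Hgf control AT2 cells and 176 in Hgf iPCKO (log2 ratio 7.34, interval 5.47 to 10.40).

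The Bdnf pair showed smaller values of the same sign for most clock genes. There, 5 of 15 were past 2-fold higher in the mutant (Hlf, Nr1d2, Per2, Per3 and Ciart) and Npas2 was past 2-fold lower, with a median of 0.66. Npas2 had a log2 ratio of -1.31 (-1.46 to -1.16), which became -0.56 with at most 10% mitochondrial UMIs, and Ciart of 1.38 (1.05 to 1.71). Nr1d1, at 0.08 (-0.02 to 0.19), did not share this. The Ciart and Per3 promoters printed above belong to genes past 2-fold in both pairs. Clock genes also differed in other cells. Endothelial cells had log2 ratios in the Hgf pair of 3.64 for Dbp (3.25 to 4.05), 4.61 for Nr1d1, -1.68 for Arntl and -2.87 for Npas2. At least 3 clock UMIs were found in 4.28%, 6.47%, 2.20% and 26.3% of thinned AT2 cells and in 2.91%, 7.86%, 2.58% and 28.5% of thinned endothelial cells. The sources used here do not give the hour at which lungs were taken.

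Genes that answer glucocorticoids and fasting lay mostly above control in both mutants. Of 17 tested in the Hgf pair, 12 were past 2-fold higher and none lower (median 1.64), and of 18 in the Bdnf pair, 6 were past 2-fold higher and none lower (median 0.85). Fkbp5, a chaperone of the glucocorticoid receptor (chr17:28618058-28737521, minus strand), stood at 9.48, 21.5, 2.48 and 58.4 CPM. Pdk4, which spares glucose by blocking pyruvate dehydrogenase, stood at 1.69, 9.72, 0.331 and 32.3 CPM. Mt2, a metallothionein, stood at 29.3, 138, 35.1 and 143 CPM, with log2 ratios of 2.23 in the Bdnf and 2.02 in the Hgf pair. Txnip, which restrains glucose uptake, stood at 159, 297, 85.8 and 389 CPM. Endothelial cells shared these directions, with Fkbp5 at a log2 ratio of 3.53 in the Hgf pair and 0.69 in the Bdnf pair.

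**Figure D4:**
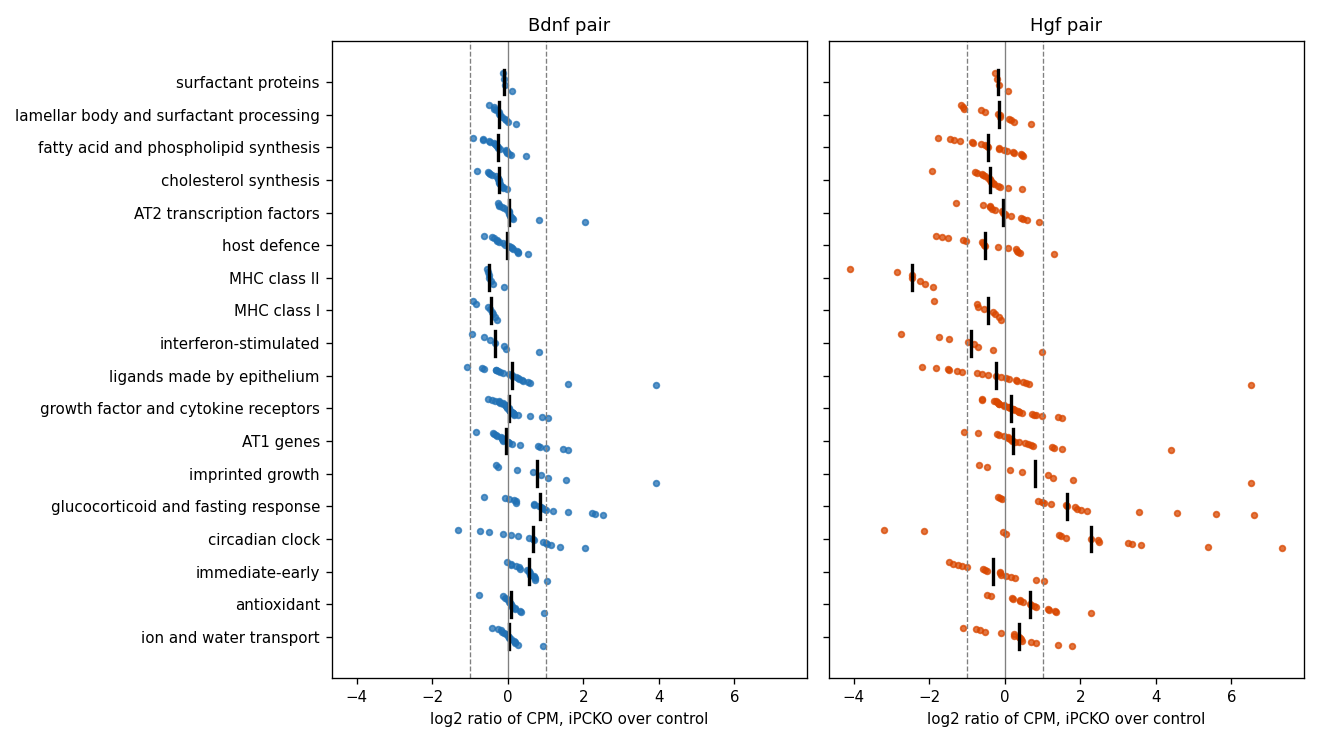
Log2 ratio of mutant to control (horizontal axis) for each tested gene of each list in AT2 cells, with the Bdnf and the Hgf pair in separate panels, a black bar at the list's median and dashed lines at 2-fold. The MHC class II points of the Hgf pair all lie left of the lower line (median -2.45), and the clock and glucocorticoid medians lie right of the upper one (2.27 and 1.64).

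Most receptor genes lay within 2-fold of control in both pairs. Met (chr6:17463749-17573979, plus strand) was found in 32.1%, 25.9%, 24.8% and 17.3% of AT2 cells after thinning, against 2.10%, 2.00%, 0.629% and 0.616% of endothelial cells. At full depth the AT2 shares were 80.1%, 63.1%, 53.8% and 34.3%. In CPM it stood at 262, 208, 190 and 125, a log2 ratio of -0.33 (-0.38 to -0.29) in the Bdnf pair and -0.60 (-0.69 to -0.52) in the Hgf pair. Ntrk2 had 22 to 24 UMIs in the AT2 cells of the other 3 libraries and 3 in Hgf iPCKO, 0.254 to 1.0 CPM, against 80.1 to 127 CPM in fibroblasts. Of 26 receptor genes in the Hgf pair, Igf1r (the insulin-like growth factor receptor) and Kit (the stem cell factor receptor) were past 2-fold higher and none lower, with a median of 0.16. Of 27 in the Bdnf pair, Kit was past 2-fold higher (median 0.02). Igf1r stood at 28.9, 54.1, 19.2 and 51.2 CPM, against 148, 199, 154 and 183 CPM in endothelial cells. Kit stood at 3.71, 7.79, 1.94 and 5.51 CPM, against 366, 378, 277 and 291 CPM in endothelial cells, whose summed markers in AT2 cells were also higher in both mutants (55.6, 99.8, 68.9 and 123 CPM). Their part in the Kit and Igf1r values was not tested.

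More ligand genes were past 2-fold lower than higher in Hgf iPCKO. Of 19, 6 were past 2-fold lower (Bmp4, Shh, Areg, Hbegf, Il33 and Cxcl15) and Dlk1 higher, with a median of -0.25. Cxcl15 is a gene of the rule, and Cxcl15 and Il33 were also counted among the host defence genes above. Areg, an EGF receptor ligand, stood at 21.8, 28.2, 51.8 and 11.4 CPM, and Bmp4, a bone morphogenetic protein, at 131, 81.7, 93.0 and 38.7. Of 20 ligands in the Bdnf pair, 2 were higher (Dlk1 and Angptl4) and 1 was lower (Csf1), with a median of 0.11. Genes of ERK feedback had 2 higher (Dusp4 and Ier3) and 3 lower (Dusp6, Egr1 and Phlda1) of 14 in the Hgf pair (median -0.18), and 2 higher (Spry4 and Dusp5) of 13 in the Bdnf pair (median 0.18).

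Few AT2 cells held several cell cycle transcripts. At least 5 UMIs of 24 genes of S phase and mitosis were found in 48 (1.05%), 43 (0.900%), 8 (0.159%) and 1 (0.0278%) AT2 cells. The libraries differ in depth, and at 1500 UMIs at least 3 such UMIs were found in 19, 24, 1 and 1 cells. At least 1 was found in 9.03%, 9.84%, 7.09% and 7.85% of thinned AT2 cells. The shares in thinned endothelial cells were 16.6%, 15.5%, 9.47% and 11.5%. Mki67, the Ki-67 antigen, had 266, 166, 8 and 0 whole UMIs in AT2 cells, and 0 of the thinned Hgf iPCKO cells held it, which allows a share of up to 0.105% of cells with a UMI by the exact interval and does not limit the share that expressed the gene. Thus most of the gap lay between the Bdnf and Hgf libraries, which were not made for comparison with each other. The group had no gene past 2-fold among 22 in the Bdnf pair (median -0.05), and 1 higher (Rrm2) among 7 tested in the Hgf pair (median -0.19). Ccnd1 and Ccnd2, D cyclins, were past 2-fold lower in Hgf iPCKO. Ccnd1, which carries growth factor signals to the cell cycle, stood at 68.4, 51.2, 107 and 23.4 CPM, and Ccnd2 at 77.3, 59.4, 130 and 64.0. Of the list of D cyclins and cell cycle brakes, 2 of 10 were lower and Cdkn1c higher in the Hgf pair (median -0.18), and Myc was higher among 12 in the Bdnf pair (median 0.09). In endothelial cells Ccnd1 had a log2 ratio of -1.94 in the Hgf pair.

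AT1 genes lay above 0 for 15 of 20 in the Hgf pair and 10 of 20 in the Bdnf pair. Of the 20, 4 were past 2-fold higher (Hopx, Spock2, Limch1 and Cyp2b10) and Cldn18 lower in Hgf iPCKO (median 0.22), and 3 were higher (Hopx, Limch1 and Cyp2b10) in Bdnf iPCKO (median -0.06). The log2 ratio of Cyp2b10 in the Bdnf pair fell under 2-fold in 5 of the alternative settings, to 0.35 at the lowest. That of Hopx in the Hgf pair fell under 2-fold in 2 settings, to 0.88 at the lowest. Hopx, a homeodomain protein of AT1 cells, stood at 72.5, 199, 181 and 430 CPM, whereas Ager (RAGE), the main AT1 marker, stood at 489, 378, 560 and 339. A Hopx UMI was found in 9.71%, 20.9%, 16.9% and 28.5% of thinned AT2 cells but also in 32.6%, 48.8%, 56.8% and 66.8% of endothelial cells, and its log2 ratio there was 0.98 in the Bdnf and 0.73 in the Hgf pair. Limch1, an actomyosin regulator, stood at 74.5, 226, 52.4 and 129 CPM. Cyp2b10, a cytochrome P450 (chr7:25597045-25626049, plus strand), stood at 2.41, 4.83, 14.7 and 313 CPM. Its log2 ratio in the Hgf pair was 4.41 (4.25 to 4.57) in AT2 cells and 0.12 (0.06 to 0.18) in AT1 cells. A Cyp2b10 UMI was found in 0.284%, 0.691%, 1.99% and 27.1% of thinned AT2 cells, against 0.150%, 0.224%, 1.62% and 3.72% of thinned endothelial cells. With every barcode thinned before the cells were chosen, its log2 ratio in the Hgf pair was 3.42.

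Genes of the transitional state between AT2 and AT1 cells had 2 higher (Ndrg1 and Ccn2) and 4 lower (Sprr1a, Itgb6, Areg and Hbegf) of 17 in the Hgf pair (median -0.03), and 1 higher (Ndrg1) and 1 lower (Lgals3) of 16 in the Bdnf pair (median -0.09). Krt8, the keratin that marks this state, stood at 56.5, 62.3, 61.3 and 83.4 CPM. The summed level of the list was 865 and 742 CPM in the Bdnf pair and 915 and 1275 in the Hgf pair. At least 3 UMIs of the list were found in 15.2%, 12.1%, 16.6% and 26.5% of thinned AT2 cells. The share was 24.8%, 33.0%, 28.3% and 47.3% in endothelial cells, above the AT2 share in every library. Whether these endothelial shares are background or RNA of the cells themselves was not tested.

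More transport and antioxidant genes lay past 2-fold higher than lower in Hgf iPCKO. Of 15 ion and water transport genes, Scnn1a and Atp1b1 were past 2-fold higher and Slc26a9 lower (median 0.37), and none was past 2-fold in the Bdnf pair (median 0.02). Scnn1a, the alpha subunit of the epithelial sodium channel, stood at 413, 419, 339 and 1156 CPM, and Atp1b1, a subunit of the sodium pump, at 2311, 2301, 1292 and 3398. Of 16 antioxidant genes in the Hgf pair, 5 were past 2-fold higher (Prdx6, Nqo1, Srxn1, Gstm1 and Cbr2), with a median of 0.67, against none of 15 in the Bdnf pair (median 0.07). Prdx6, a peroxiredoxin that also acts on surfactant phospholipids, stood at 568, 598, 312 and 706 CPM. Cbr2, a carbonyl reductase of lung epithelium, stood at 4324, 5463, 6303 and 16053 CPM, and the median thinned cell had 6, 8, 9 and 23 UMIs. Of these genes, Scnn1a and Cbr2 were also higher in the endothelial class of the Hgf pair, with log2 ratios of 2.13 and 1.83. In barcodes of 20 to 100 UMIs, which hold mostly free RNA, their log2 ratios were 1.05 and 1.15. How much of the endothelial values is free RNA was not tested.

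Imprinted growth genes stood out in both pairs. Of 8 tested, 3 were past 2-fold higher in Bdnf iPCKO (Igf2, Dlk1 and Meg3, median 0.77) and the same 3 and Cdkn1c in Hgf iPCKO (median 0.79), none lower. Dlk1, a non-canonical Notch ligand of fetal tissue (chr12:109418749-109429262, plus strand), stood at 0.358, 5.39, 0.868 and 79.9 CPM. It had 14, 153, 21 and 1048 UMIs, and its log2 ratio was 3.91 (3.12 to 4.82) in the Bdnf and 6.52 (5.91 to 7.22) in the Hgf pair, and 4.83 there with at most 10% mitochondrial UMIs. A Dlk1 UMI was found in 5.86% of thinned Hgf iPCKO AT2 cells and in at most 0.544% in the other libraries. In thinned endothelial cells the Dlk1 share was 0.0300%, 0.0249%, 0.0300% and 0.213%. Fibroblasts held Dlk1 at 24.2, 75.9, 5.98 and 23.8 CPM, above its AT2 level in all libraries but Hgf iPCKO, and how much of the AT2 value is free RNA was not tested. Meg3, the non-coding RNA of the same locus (chr12:109506877-109538165, plus strand), stood at 62.6, 183, 107 and 376 CPM. In endothelial cells Meg3 had a log2 ratio of 1.93 in the Bdnf and 0.76 in the Hgf pair.

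Immediate-early genes, which cells switch on within minutes of a stimulus, had medians on opposite sides of 0 in the pairs, a difference that was not tested. Of 16 immediate-early genes, 15 lay above 0 in the Bdnf pair, with Atf3 past 2-fold higher (median 0.56), whereas in the Hgf pair 5 were past 2-fold lower (Fos, Fosb, Egr1, Atf3 and Nr4a1) and Ier3 higher (median -0.31). Fos, which cell dissociation also induces, stood at 584, 966, 657 and 255 CPM. In endothelial cells Fos had a log2 ratio of 0.68 in the Bdnf pair and 0.12 in the Hgf pair. The 13 heat shock genes had none past 2-fold in the Bdnf pair (median -0.26) and 3 lower in the Hgf pair (median -0.34). Of 13 genes of the unfolded protein and amino acid response, Herpud1 and Trib3 were higher and Sdf2l1, Pdia4 and Hyou1 lower in the Hgf pair (median -0.23), and none was past 2-fold in the Bdnf pair (median -0.14). Herpud1, of the degradation arm at the endoplasmic reticulum, stood at 456, 523, 398 and 1365 CPM. Of 13 laminin and basement membrane genes, Lama3 and Egfl6 were past 2-fold lower in the Hgf pair and none in the Bdnf pair.

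Among genes of at least 30 CPM in the higher library of a pair, the 6 furthest below control in Hgf iPCKO were Hdc, Ptgs2, Retnla, Nnat, Npas2 and Klk13. Hdc, which makes histamine (chr2:126435558-126461318, minus strand), stood at 183, 82.3, 227 and 13.4 CPM, a log2 ratio of -4.08 (-4.31 to -3.87) in the Hgf pair and -1.15 (-1.22 to -1.08) in the Bdnf pair. Endothelial cells went the other way, with 0.42 and 0.74. Ptgs2, the inducible prostaglandin synthase, stood at 53.0, 84.5, 59.0 and 3.96 CPM, and Retnla, a secreted resistin-like protein, at 190, 354, 90.7 and 7.93, both above control in Bdnf iPCKO. A Retnla UMI was found in 7.40%, 9.92%, 3.22% and 0.996% of thinned AT2 cells, against 0.630%, 1.85%, 0.569% and 0.237% of thinned endothelial cells, and its Fano factor was 14.2, 31.1, 37.3 and 1.33. Nnat (neuronatin), a membrane protein of the endoplasmic reticulum, stood at 114, 70.0, 363 and 32.5 CPM. Those furthest above control included Pdk4, Dlk1, Dbp, Fkbp5 and Cyp2b10. Of AT2-enriched genes (at least 4-fold over all other barcodes of the same library in both libraries of a pair), Tinag, a basement membrane glycoprotein (chr9:76858975-76953076, minus strand), stood at 151, 75, 123 and 27.3 CPM. Among 122 AT2-enriched genes of at least 30 CPM in the Hgf pair, 36 were past 2-fold lower and 7 higher (median -0.45). The other barcodes include AT2-marked ones that the rule set aside, 1398 of 9053 in Hgf control and 1304 of 12227 in Hgf iPCKO. These hold the fold down, so the 4-fold limit leaves out genes of AT2 cells. Even Slc34a2, the highest of the most AT2-particular genes, had a lowest fold of 4.80 over the libraries.

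In the Bdnf pair, with the same minimum of 30 CPM, the 6 genes furthest below control were Mylk, Npas2, Hdc, Il18r1, Tinag and Dmkn, and the 6 furthest above were Mt2, Limch1, Meg3, Hopx, Thbs1 and Fmo2. Of the latter 6, all but Meg3 stood lower in AT2 cells than in the other barcodes of every library, and endothelial markers in AT2 cells also stood higher in Bdnf iPCKO (55.6 and 99.8 CPM). The part of these in the values was not tested. Mylk, myosin light chain kinase, stood at 109, 34.2, 130 and 24.7 CPM (log2 ratio -1.67 in the Bdnf and -2.40 in the Hgf pair). Thbs1, the matrix protein thrombospondin 1, stood at 31.3, 85.2, 46.2 and 40.9 CPM and was past 2-fold in the Bdnf pair alone of the 2. Fmo2, the flavin monooxygenase of the lung, stood at 36.7, 95.8, 7.71 and 66.6 CPM. Of 39 AT2-enriched genes of at least 30 CPM, 2 were past 2-fold higher (Cst8, a cystatin, and Nipal1, a magnesium transporter family member) and none lower, with a median of -0.18. Tinag, at 3.87- and 3.64-fold over the other barcodes of the Bdnf libraries, lay under the 4-fold limit there and is not in this count. Of those other barcodes, 3004 of 12160 in Bdnf control and 5135 of 18985 in Bdnf iPCKO were AT2-marked ones set aside by the rule. The limit is therefore not alike in the 2 pairs, and the count covers only the genes that passed it. Nipal1 stood at 58.8, 123, 66.6 and 131 CPM. The log2 ratios of Nipal1, Tinag, Dmkn and Il18r1 in the Bdnf pair fell under 2-fold in at least 1 alternative setting (to 0.92, -0.99, -0.65 and -0.93).

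The pairs share no library, so their genes past 2-fold were counted side by side over 11844 genes tested in both. Of the genes higher in the mutant, 55 were shared, 56.7% of the 97 of the Bdnf pair and 12.4% of the 442 of the Hgf pair. Of those lower, 32 were shared, 68.1% of 47 and 4.79% of 668. Over all genes tested in each pair, 3.89% lay past 2-fold higher and 5.75% lower in the Hgf pair. In the Bdnf pair these background shares, over its 13637 genes, were 1.44% and 0.638%. Over the 11844 genes tested in both, with 97 higher and 47 lower in the Bdnf pair, its shares were smaller. Shared genes included Fkbp5, Pdk4, Per2, Per3, Ciart, Dlk1, Meg3, Hopx, Limch1, Mt1, Mt2 and Fmo2 among the higher, and Mylk, Npas2, Hdc and Tinag among the lower. Opposite signs past 2-fold were found for Atf3, Cst8 and Septin11 (higher in Bdnf iPCKO, lower in Hgf iPCKO) and for Hba-a1, the alpha globin gene, in reverse.

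Part of what differed in AT2 cells also differed in other lung cells, some of whose classes shared a few cells with the AT2 class. Of genes past 2-fold higher in Hgf iPCKO AT2 cells and tested in both classes, 95 of 199 were so in AT1 cells, 115 of 364 (31.6%) in endothelial cells and 70 of 183 in fibroblasts. Of those lower, 82 of 180 were so in AT1 cells and 157 of 456 (34.4%) in endothelial cells. Over all genes tested in both classes, those past 2-fold higher were 4.02% in AT1 cells, 2.96% in endothelial cells and 6.25% in fibroblasts, and those lower 3.28% in AT1 cells and 3.60% in endothelial cells. In the Bdnf pair, 36 of 57 higher genes were also higher in AT1 cells (2.79% of all genes tested in both) and 21 of 135 (15.6%) in endothelial cells (0.655% of all). Of the lower genes of that pair, 5 of 20 were also lower in AT1 cells (0.389% of all) and 5 of 31 in endothelial cells (0.612% of all). Markers of other cells, summed by cell type, partly moved with genotype. The rule itself held down the 7 genes it limits, which are among these markers. Endothelial markers summed to 55.6, 99.8, 68.9 and 123 CPM, fibroblast markers to 92.2, 115, 37.2 and 23.9, club markers to 158, 147, 134 and 177, AT1 markers to 766, 754, 1183 and 1277, ciliated markers to 81.7, 66.9, 132 and 89.3, immune markers to 8.05, 9.95, 8.45 and 10.4, pericyte markers to 12.7, 12.4, 15.5 and 16.2, erythroid markers to 18.0, 9.20, 9.75 and 114, and mesothelial markers to 0.307, 1.36, 0.186 and 2.74. Among the pericyte markers, Pdgfrb stood at 0.486, 3.03, 0.496 and 4.04 CPM, and only the mutants carried the Pdgfrb(BAC)-CreERT2 transgene. The part of all these markers in the genotype values was not tested.

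**Figure D5:**
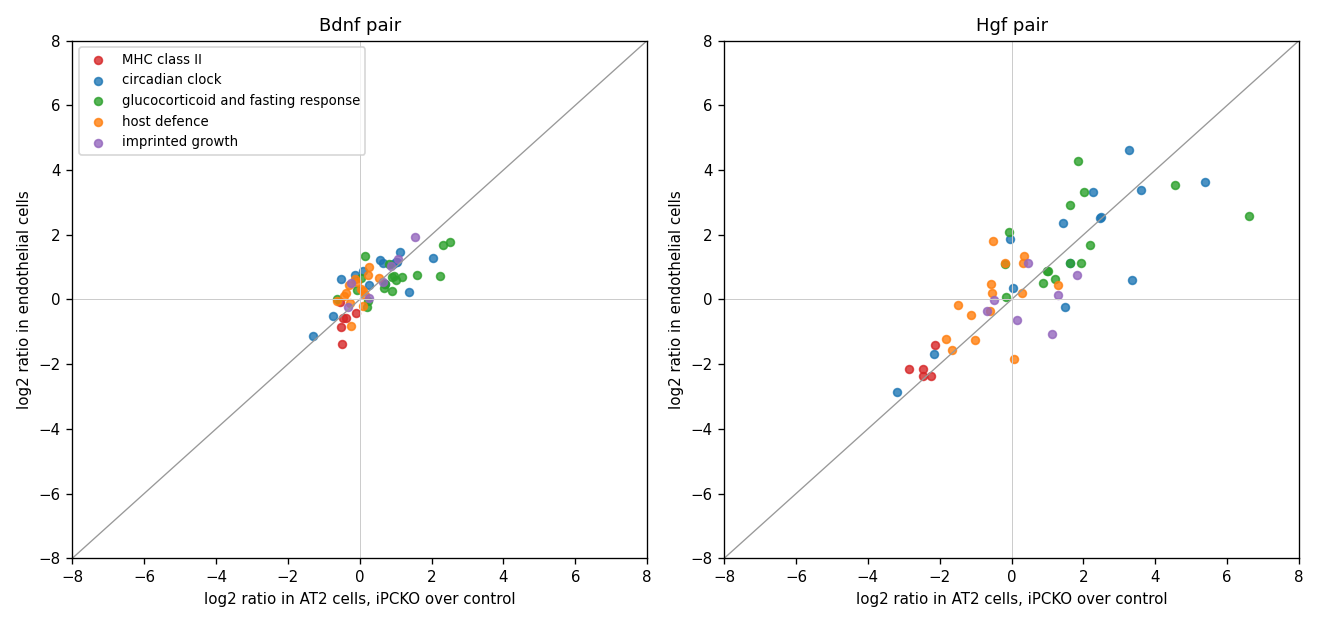
Log2 ratio of mutant to control in AT2 cells (horizontal axis) against that in endothelial cells (vertical axis) for 5 lists, with the Bdnf and the Hgf pair in separate panels and only genes whose interval in endothelial cells spans at most 2 log2 units. Clock genes of the Hgf pair lie at both ends, on either side of the diagonal (Nr1d1 at 3.26 and 4.61, Dbp at 5.38 and 3.64, Npas2 at -3.20 and -2.87), and Cxcl15 lies at -1.83 and -1.21.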

How the data were processed

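Cells were captured with the BD Rhapsody whole-transcriptome 3′ assay, 1 library per genotype. The authors mapped reads with STAR 2.7.10a (submitters' processing notes) to GRCm39 and deposited unfiltered matrices of estimated UMI counts, in which reads of several genes were shared out by expectation maximisation, so a value need not be whole. From these deposited estimated counts, barcodes were kept at 1500 UMIs or more (700 in the Hgf libraries) with at most 25% mitochondrial UMIs, and AT2 cells by the marker rule. UMIs were summed over the AT2 cells of a library and divided by their total (CPM). The log2 ratio of mutant to control was taken for genes with at least 100 UMIs over both libraries. No pseudocount was added, but a floor of 3 UMIs stood in for an empty count. The limit for a count was 2-fold. Estimated counts were rounded for intervals and for thinning to 1500 UMIs. The AT2 members and the gene lists were chosen with earlier results of these data known.

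The genes named were the 6 highest and 6 lowest log2 ratios of each pair among genes of at least 30 CPM, the 8 highest and 8 lowest among AT2-enriched genes, the rule's genes, Met, Lamp3, Abca3 and Tinag, and up to 8 members of a list. Other classes were gated by rules of the same form. The ratio step was run on simulated data for both pairs, in which 200 of 200 changed genes were recovered in each. The changes set there were all larger than 2-fold, in genes with ample UMIs, and the counts held no variation between libraries. The recovery therefore checks the calculation and not the 2-fold calls between genotypes. Alternatives were other limits on cells, doublet removal (Scrublet), scaling, equal weight per cell, the UMI filter and thinning. Gene positions are from GRCm39 and promoters from GRCm38.p6, and the 2 were not joined. Python 3.11.15, numpy 2.4.6, scipy 1.17.1, pandas 2.3.3, scanpy 1.11.5 and matplotlib 3.10.9 were used. Values of some genes that the lists and the naming rule would name are not reported here.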

Additional observations from a re-analysis of the deposited data

Results flagged for a closer look

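Among genes tested in both pairs, 4 lay past 2-fold in opposite directions, with 1 library per group, and the difference between the pairs was not tested. Atf3, a stress-induced transcription factor, had a log2 ratio of 1.03 (17.5 to 35.8 CPM) in the Bdnf pair and -1.13 (46.0 to 21 CPM) in the Hgf pair. Cst8, an AT2-enriched cystatin, had 1.19 (28.4 to 64.5 CPM) in the Bdnf pair and -1.18 (61.2 to 27.0 CPM) in the Hgf pair. Hba-a1, an alpha globin gene of red cells, had -1.02 (9.21 to 4.54 CPM) in the Bdnf pair and 3.44 (4.75 to 51.7 CPM) in the Hgf pair. Septin11, a cytoskeletal GTPase outside the rule for named genes and named after its values were seen, had 1.31 (10.4 to 25.9 CPM) in the Bdnf pair and -1.88 (48.0 to 13 CPM) in the Hgf pair. In endothelial cells Hba-a1 stood at 0.98 in the Hgf pair and -0.81 in the Bdnf pair, and Atf3 at -0.63 and 1.09.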

How the results depend on the processing

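No paired analysis was possible because each genotype had 1 library, so no replicate numbers pair controls with mutants, and no replicate could be left out. The control share of AT2 cells stayed above the mutant share in both pairs under every alternative. The shares for Bdnf control, Bdnf iPCKO, Hgf control and Hgf iPCKO (27.4%, 20.1%, 35.8% and 22.7% as reported) became 18.5%, 12.6%, 29.2% and 18.9% with 0 UMIs of other cells' genes, 5.73%, 2.22%, 12.6% and 6.25% with at most 10% mitochondrial UMIs, and 36.3%, 29.4%, 45.0% and 30.8% after thinning every barcode to 1500 UMIs. Without Scrublet doublets the Bdnf shares became 29.2% and 22.8%, and with a minimum of 1500 UMIs the Hgf shares became 40.2% and 27.6%. The Hgf iPCKO share was 21.6% with 4 markers required and 21.6% without Sftpb. Without Hc and Cxcl15 among the markers, chosen after the data were seen, the iPCKO shares were 19.4% (Bdnf) and 21.2% (Hgf).

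The genes past 2-fold (Bdnf 196 higher and 87 lower, Hgf 466 higher and 688 lower) became 719, 331, 1072 and 1306 with a minimum of 20 UMIs, and 46, 40, 271 and 328 with at most 10% mitochondrial UMIs. After thinning, 73 and 38 were left in the Bdnf pair and 458 lower in the Hgf pair, and with 0 UMIs of other cells' genes 118 were higher in the Bdnf pair. More genes pass the minimum of 20 UMIs, and fewer cells or UMIs are left in the other 3 settings. Of 65 named log2 ratios past 2-fold, 65 kept their direction under every alternative that gave them a value (some had too few UMIs in the settings with fewer cells or UMIs), and 8 fell under 2-fold in some setting. Among the latter were Cyp2b10 (0.35 to 1.19) and Npas2 (-1.37 to -0.56) in the Bdnf pair and Hopx (0.88 to 1.69) and Lyz1 (-1.11 to -0.96) in the Hgf pair. Many of the 65 were named for their extreme ratios, and every alternative used the same 4 libraries. Kept directions therefore do not test the genotype difference. Named log2 ratios, those under 2-fold included, were also set beside the counting interval of the reported value. With at most 10% mitochondrial UMIs, 90 lay outside it and 40 within. After thinning every barcode before the rule, 56 lay outside it and 82 within. With at most 10% mitochondrial UMIs, the ratio itself (its log2 value in brackets) changed by over 1.5-fold for some genes. Among them were Mt2 (1.63), Fmo2 (2.18) and Npas2 (-0.56) in the Bdnf pair and Dlk1 (4.83), Fkbp5 (5.54), Nnat (-4.21) and Npas2 (-4.49) in the Hgf pair. After thinning, such changes included Fmo2 (2.34), Pdk4 (6.01) and Cyp2b10 (3.42) in the Hgf pair. The median log2 ratio that median-of-ratios scaling sets to 0 was -0.01 in both pairs, and leaving out the 20 highest genes shifted all log2 ratios by 0.02 in the Bdnf pair and -0.08 in the Hgf pair.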
